A study of Homo sapiens with 2 samples.

Results

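The expression of 9 genes of the SRC family and focal adhesion kinase system was examined in U87 cells, an established human glioblastoma line, by mRNA sequencing. The members were set by name: the SRC family kinases SRC, FYN, YES1 and LYN, their inhibitory kinase CSK, the focal adhesion kinases PTK2 (FAK) and PTK2B (PYK2), and the adaptors BCAR1 (p130Cas) and PXN (paxillin). All 9 were found among the 41582 genes that carried a symbol. U87 cells, labelled as wild type and of brain origin, received either CCA-1.1, an analog of curcumin, or the solvent DMSO for 72 h, and 1 library was sequenced per condition. The CCA-1.1 dose used for sequencing is not given in the sources used here. With 1 library per condition no value below has a replicate error, no difference was tested, and each comparison is between 2 libraries. In such bulk samples fewer cells that express a gene and less of its RNA per cell cannot be told apart.

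SRC family kinases are membrane-anchored tyrosine kinases that pass signals from integrins and growth factor receptors to the cytoskeleton. CSK holds them in a closed state by phosphorylating a tyrosine in their C-terminal tail. At sites where integrins bind the matrix, FAK phosphorylates itself and so recruits SRC, and the kinase pair then phosphorylates paxillin and p130Cas, which dock the CRK adaptors and drive adhesion turnover and migration. In glioblastoma this pathway is known for its part in invasion.

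Values are in TPM, transcript abundance scaled by length and to a fixed library total, which the authors estimated by pseudo-alignment, and gene values are sums over the transcripts of a gene. Levels can be set side by side between genes on this scale, but the read depth is unknown and no counting interval is given. Differences are those of log2(TPM + 1), CCA-1.1 minus DMSO, and a gene or transcript past 1 or -1 on this scale was counted as past the threshold, called 2-fold here. Since 1 TPM is added to each value, a transcript of a few TPM can differ by more than 2 times in TPM itself and still not pass. Of the markers fixed for glial and glioma cells, VIM (3217 TPM with DMSO, 3106 TPM with CCA-1.1) and CD44 (607 TPM, 473 TPM) were high. Far below them were NES (7.53 TPM, 7.62 TPM), OLIG2 (5.64 TPM, 7.03 TPM) and SOX2 (1.87 TPM, 1.45 TPM). GFAP was at 0.41 TPM and 0.57 TPM, and S100B was listed at 0 in both libraries. Mesenchymal FN1 was at 11241 TPM and 9088 TPM, COL1A2 at 564 TPM and 443 TPM, and COL1A1 at 15.9 TPM and 19.8 TPM, while THY1 was listed at 0. Of the blood cell markers, SPI1 and CD3E were listed at 0 and ITGAM was at 0.70 TPM and 0.81 TPM. The 4 neuronal markers summed to 35.2 TPM and 30.8 TPM, most of it SNAP25 (22.0 TPM and 16.8 TPM), and the 3 endothelial markers to 3.93 TPM and 3.23 TPM.

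The RNA levels of the members were nearly the same in both libraries, and protein, phosphorylation and kinase activity were not measured here. None of the 9 members was past 2-fold in either direction. Over all genes, 0.815% were past 2-fold higher and 0.714% past 2-fold lower with CCA-1.1, and among the 7906 protein-coding genes that averaged 10 TPM or more these shares were 0.0632% and 0.152%, so a count of 0 among 9 genes is near the background. With the pseudocount of 1 TPM the largest difference was that of SRC, at 0.28, and the lowest was that of CSK, at -0.19. With CCA-1.1, SRC, YES1, PTK2B and BCAR1 had the higher value, whereas FYN, LYN, CSK, PTK2 and PXN were lower. Of the 7 members at 10 TPM or more in the mean, 3 were higher, against 51.1% of all protein-coding genes at that level. The median difference of the 9 members was -0.0059, beside 0.0039 for the 7906 protein-coding genes, whose 5th and 95th percentiles were -0.29 and 0.31.

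**Figure D1:**
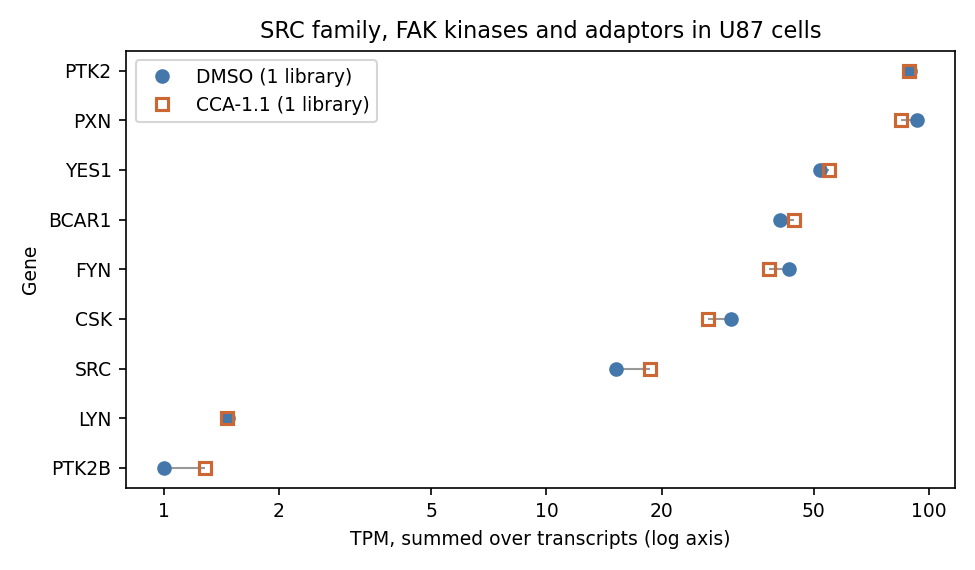
Gene-level TPM of the 9 members (log axis) in the DMSO library (filled circles) and the CCA-1.1 library (open squares), 1 library each, joined by a line. The symbols of LYN and PTK2 overlap, and SRC shows the widest gap among members above 10 TPM.

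**Figure D2:**
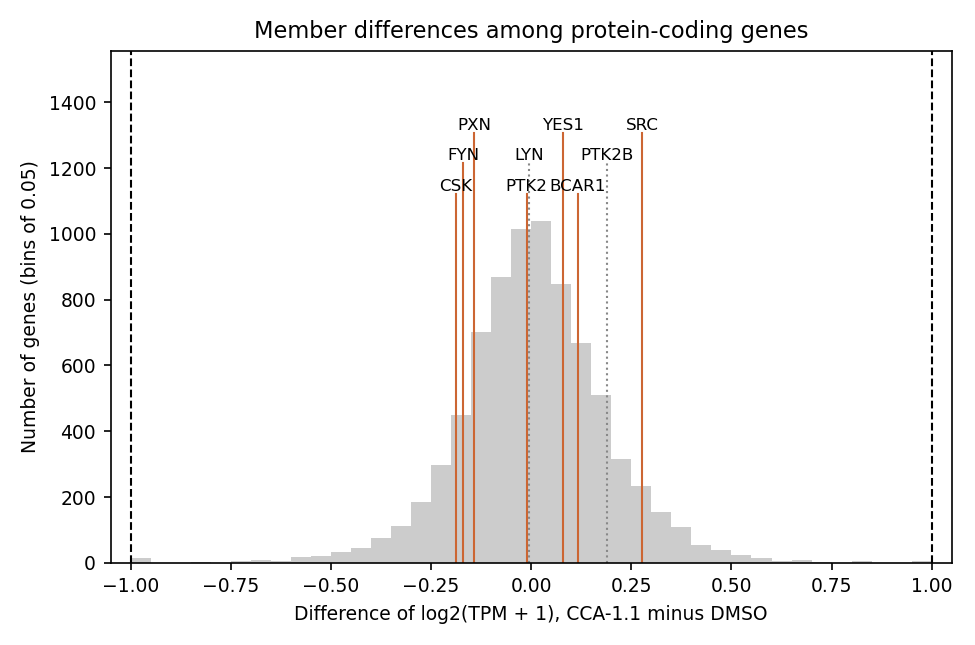
Number of protein-coding genes that averaged 10 TPM or more by their difference of log2(TPM + 1), CCA-1.1 minus DMSO, in bins of 0.05, with genes past 2-fold placed in the end bins. Vertical lines mark the members (dotted for LYN and PTK2B, which are under 10 TPM), dashed lines mark 2-fold, and every member lies between -0.19 and 0.28.

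By level the members fell into 3 tiers. PXN and PTK2 led, with 93.1 TPM and 89.4 TPM with DMSO and 84.3 TPM and 88.7 TPM with CCA-1.1, and their order was exchanged between the libraries. YES1, FYN, BCAR1, CSK and SRC followed between 15.2 TPM and 54.9 TPM, with FYN above BCAR1 with DMSO and below it with CCA-1.1. LYN and PTK2B stood last, under 1.5 TPM in both libraries. Whether neighbours in this order differ cannot be said without replicates. PTK2 lay above 78.4% of the 7906 protein-coding genes by mean level, and SRC above 19.9%.

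SRC (Entrez 6714, chromosome 20, 37344699 to 37406050 in GRCh38.p14), the founding kinase of the family, was at 15.2 TPM with DMSO and 18.6 TPM with CCA-1.1. On the log2(TPM + 1) scale this is the largest difference of the members. In either direction 11.9% of the 7906 protein-coding genes differed by at least as much. With a pseudocount of 0.1 TPM the low PTK2B had the larger difference, 0.33 against 0.29 for SRC. The table lists 21 SRC transcripts, of which 11 were at 0 in both libraries. The RefSeq annotation used for matching holds 40 SRC transcripts, and those absent from the table have no value here. NM_198291.3 held most of the gene, with 12.9 TPM (85.1% of SRC) with DMSO and 16.1 TPM (86.4%) with CCA-1.1, and NM_005417.5, the other curated transcript, was listed at 0 in both. The predicted transcripts XM_047440408.1 (0.97 TPM, 0.73 TPM) and XM_047440410.1 (0.56 TPM, 1.13 TPM) were the only others to reach 5% of the gene in either library. So the higher SRC value lay in the leading transcript, which accounted for 3.16 TPM of the net 3.44 TPM.

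FYN (Entrez 2534, chromosome 6, 111660332 to 111873452 in GRCh38.p14), a SRC family kinase prominent in brain and in T cells, was at 43.1 TPM with DMSO and 38.2 TPM with CCA-1.1, a difference of -0.17. An absolute difference at least this large was found in 30.1% of the protein-coding genes. FYN is made in forms that carry different versions of an exon encoding the link between the SH2 domain and the start of the kinase domain. NM_002037.5 encodes the form known as FynB and NM_153047.4 the form known as FynT. This link is background knowledge and was not derived from the data used here. Both transcripts had values above 0 in both libraries, and the alternative exons are shown because they are what separates the forms. They were taken from GENCODE transcripts FYN-202 (537 codons) and FYN-205 (534 codons), which differ from each other by exon 9 of 14 alone, and the GENCODE coordinates are on GRCh37, not on the build of the deposited table. The FYN-202 exon has 165 bases at chr6:112021307-112021471 and the FYN-205 exon has 156 bases at chr6:112020718-112020873, both on the minus strand and coding. Capitals mark bases that differ from the other exon, or have no partner, in a global alignment in which 94 of 173 columns (54.3%) were identical.
FynB exon (FYN-202): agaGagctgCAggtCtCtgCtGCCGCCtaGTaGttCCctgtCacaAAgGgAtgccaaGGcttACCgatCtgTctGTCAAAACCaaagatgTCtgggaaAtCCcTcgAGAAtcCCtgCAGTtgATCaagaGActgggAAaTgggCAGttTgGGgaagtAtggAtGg
FynT exon (FYN-205): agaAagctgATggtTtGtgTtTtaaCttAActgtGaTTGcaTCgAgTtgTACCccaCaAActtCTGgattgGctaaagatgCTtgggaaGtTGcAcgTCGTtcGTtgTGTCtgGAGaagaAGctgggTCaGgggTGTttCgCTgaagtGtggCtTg

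In size, the fall of the FynB transcript was nearly that of the net FYN change. Over all FYN transcripts the higher values summed to 1.75 TPM and the lower ones to -6.65 TPM, a net change of -4.9 TPM. NM_002037.5 was at 25.3 TPM with DMSO and 20.5 TPM with CCA-1.1, a difference of -0.29, whereas NM_153047.4 was at 10.8 TPM and 10.4 TPM, a difference of -0.05. The ratio of the FynB transcript to the FynT transcript was 2.36 with DMSO and 1.98 with CCA-1.1. The other FYN transcripts were assigned to neither form and are not in this ratio. By share, NM_002037.5 was 58.8% of FYN with DMSO and 53.8% with CCA-1.1, and NM_153047.4 was 24.9% and 27.2%. NM_001370529.1 was at 2.90 TPM and 3.49 TPM, and the predicted XM_047418561.1 at 2.29 TPM and 1.49 TPM. Of the 21 FYN transcripts listed, 15 were above 0 in at least 1 library and none was past 2-fold.

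YES1 (Entrez 7525, chromosome 18, 721588 to 812753), a close relative of SRC that many tissues express, was the highest SRC family kinase in both libraries. It was at 51.9 TPM with DMSO and 54.9 TPM with CCA-1.1, a difference of 0.08. Its only curated transcript, NM_005433.4, was at 43.1 TPM and 43.5 TPM. The predicted transcripts that reached 5% of the gene differed in opposite directions: XM_024451244.2 was at 2.35 TPM with DMSO and 4.81 TPM with CCA-1.1, and XM_005258139.5 was at 4.82 TPM and 2.16 TPM. Both differed by more than 2 times in TPM, but their differences on the log2(TPM + 1) scale, 0.79 and -0.88, did not pass the threshold. Their changes of 2.46 TPM and -2.66 TPM nearly cancelled. Most of the net change of 3 TPM in YES1 lay in the predicted XM_024451243.2 (0.77 TPM, 2.10 TPM) and XM_017025960.3 (0.60 TPM, 1.84 TPM), which are named after their values were seen.

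LYN (Entrez 4067, chromosome 8, 55879835 to 56014169), a kinase best known from myeloid and B cells, was low, with 1.47 TPM with DMSO and 1.46 TPM with CCA-1.1. The equal totals covered unequal transcripts. NM_002350.4, which encodes the longer LynA, was at 1.16 TPM with DMSO and 0.75 TPM with CCA-1.1, and NM_001111097.3, which encodes LynB, was at 0.31 TPM and 0.71 TPM. The LynB share was thus 21.1% with DMSO and 48.6% with CCA-1.1. Neither difference (-0.30 and 0.38) passed 2-fold with the pseudocount of 1 TPM, and the reads behind values of this size are unknown.

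The summed level of the SRC family kinases among the members was 111.7 TPM with DMSO and 113.2 TPM with CCA-1.1. Within it YES1 was 46.5% and 48.5%, FYN 38.6% and 33.7%, SRC 13.6% and 16.5%, and LYN 1.32% and 1.29%. Of the relatives outside the members, FGR was at 0.22 TPM and 0.33 TPM, and LCK was at 0.06 TPM with DMSO and listed at 0 with CCA-1.1. BLK, known from B cells, stood apart from these relatives, with 28.3 TPM in both libraries, above SRC. The curated NM_001715.3 held 43.0% of BLK with DMSO and 48.6% with CCA-1.1. Beside this value, the myeloid factor SPI1 was listed at 0 in both libraries and the pan-leukocyte PTPRC was at 0.09 TPM and 0.07 TPM. The antisense gene BLK-AS1, whose span overlaps that of BLK, was at 3.77 TPM and 3.94 TPM. Use of strand in counting is not stated, and how far its reads entered BLK was not tested.

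CSK (Entrez 1445, chromosome 15, 74782080 to 74803197), the kinase that holds the SRC family inactive, was at 30.3 TPM with DMSO and 26.5 TPM with CCA-1.1. Its difference of -0.19 was the lowest of the members, and 25.5% of protein-coding genes differed by at least as much. Its leading transcripts were both lower with CCA-1.1: NM_004383.3 was at 18.9 TPM and 17.4 TPM, and NM_001127190.2 was at 7.91 TPM and 6.33 TPM. Of the 11 CSK transcripts above 0 in either library, 8 were lower and 3 were higher with CCA-1.1. The TPM of SRC, FYN, YES1 and LYN together was 3.69 times that of CSK with DMSO and 4.28 times with CCA-1.1, a change of 0.21 in the log2 ratio. BLK, which is not a member, was left out of this sum, and the ratio is one of RNA, not of kinase activity. CSK is brought to the membrane by the phosphoprotein PAG1, which was at 14.4 TPM with DMSO and 18.0 TPM with CCA-1.1. MATK, a relative of CSK, was listed at 0 with DMSO and reached 0.07 TPM with CCA-1.1.

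PTK2 (Entrez 5747, chromosome 8, 140657900 to 141002079), which encodes FAK, was at 89.4 TPM with DMSO and 88.7 TPM with CCA-1.1. The difference of -0.01 was smaller than that of 93.7% of the protein-coding genes. PTK2B (Entrez 2185, chromosome 8, 27310506 to 27459391), the calcium-responsive FAK relative of neurons and blood cells, was at 1 TPM and 1.28 TPM, so PTK2 exceeded it 89.4 times with DMSO and 69.3 times with CCA-1.1. In PTK2B no transcript above 0.21 TPM was shared by the libraries. XM_047421538.1 (0.52 TPM) and XM_047421540.1 (0.27 TPM) were above 0 with DMSO alone, and XM_047421534.1 (0.55 TPM), XM_047421535.1 (0.27 TPM) and XM_047421531.1 (0.25 TPM) with CCA-1.1 alone. The curated NM_173174.3 was at 0.21 TPM and 0.17 TPM, and with curated transcripts only, the PTK2B difference changed from 0.19 to -0.05.

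The steady total of PTK2 was the sum of many transcripts that differed. The table lists 181 PTK2 transcripts, 133 of them at 0 in both libraries, and the 4 highest were needed to reach 50% of the gene in either library. NM_001387628.1 was the highest with DMSO, at 15.2 TPM against 10.3 TPM with CCA-1.1, and NM_001387614.1 was the highest with CCA-1.1, at 15.0 TPM against 14.4 TPM with DMSO. NM_001387605.1 was at 13.99 TPM and 11.9 TPM. NM_001387616.1 was past 2-fold, at 2.42 TPM with DMSO and 7.95 TPM with CCA-1.1 (difference 1.39), and so was NM_001387634.1, at 0.12 TPM and 1.33 TPM (1.06). In the other direction NM_001387586.1 was at 4.83 TPM with DMSO and 0.88 TPM with CCA-1.1 (-1.63). NM_001387619.1 (4.65 TPM, 7.50 TPM), NM_001387612.1 (2.73 TPM, 6.13 TPM) and NM_001387613.1 (4.63 TPM, 3.34 TPM) also reached 5% of the gene and did not pass the threshold. For NM_001387612.1 the difference was 0.93 on the log2(TPM + 1) scale, although its TPM differed by more than 2 times. Over all PTK2 transcripts the higher values summed to 19.6 TPM and the lower ones to -20.3 TPM, a net change of -0.73 TPM.

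BCAR1 (Entrez 9564, chromosome 16, 75228181 to 75268007), the p130Cas scaffold that SRC phosphorylates, was at 40.8 TPM with DMSO and 44.3 TPM with CCA-1.1, a difference of 0.12. NM_001170718.3 was level at 32.3 TPM and 32.6 TPM, and the rest of the gene was at 8.49 TPM and 11.7 TPM. Within this rest NM_001170717.3 was at 3.81 TPM and 4.86 TPM and NM_001170719.3 at 1.95 TPM and 3.65 TPM. BCAR1 held 99.8% of the TPM of the 4 CAS family genes with DMSO and 99.6% with CCA-1.1. Its relatives NEDD9 (0.04 TPM, 0.11 TPM) and CASS4 (0.06 TPM, 0.08 TPM) were close to the smallest value of the table, 0.01 TPM, and EFS was listed at 0.

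PXN (Entrez 5829, chromosome 12, 120210447 to 120265730), the adaptor paxillin, was at 93.1 TPM with DMSO and 84.3 TPM with CCA-1.1, a difference of -0.14, and 37.05% of protein-coding genes differed by at least as much. NM_002859.4 was the leading transcript, at 46.4 TPM and 38.5 TPM. Against it, NM_001243756.2 was at 9.16 TPM with DMSO and 13.8 TPM with CCA-1.1, and NM_001080855.3 was at 5.30 TPM and 8.20 TPM. The predicted XM_047429240.1 was at 6.05 TPM and 3.84 TPM. Past 2-fold and lower with CCA-1.1 were the predicted XM_047429243.1 (4.20 TPM, 0.80 TPM, difference -1.53) and XM_047429246.1 (1.41 TPM, 0.02 TPM, -1.24). The antisense gene PXN-AS1, part of which overlaps PXN, was at 16.3 TPM and 20.6 TPM, and how far its reads entered PXN was not tested. The paxillin relatives of U87 cells differed in opposite directions, with LPXN at 46.1 TPM and 39.8 TPM and TGFB1I1 (Hic-5) at 35.1 TPM and 38.1 TPM, so that PXN made up 53.4% of the 3 genes with DMSO and 52.0% with CCA-1.1.

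Of the 339 transcripts of the 9 members, 2 were past 2-fold higher and 3 past 2-fold lower with CCA-1.1, and all 5 belonged to PTK2 or PXN. These genes also supplied most of the 339, with 181 transcripts of PTK2 and 37 of PXN. Over all transcripts listed, 1.17% of transcripts were past 2-fold higher and 1.07% lower. Of the members' transcripts, 198 were at 0 in both libraries, so the count was also taken over those with a mean of at least 1 TPM. Of these 46 transcripts, 1 was higher and 2 were lower, against 3.66% and 3.38% of all transcripts at that level. PTK2 supplied 19 of the 46 and PXN 10. Of the 7 members that averaged 10 TPM or more, 2 had a transcript past 2-fold, as did 20.6% of protein-coding genes at that level. These counts lay near the background.

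How far the makeup of a gene differed between the libraries was measured as the percentage of its TPM that sat in other transcripts. It was 22.4% for PTK2 and 17.4% for PXN, more than in 92.6% and 86.7% of the 6629 protein-coding genes that averaged 10 TPM or more and had at least 2 transcripts. The remaining members of that level ranged from 5.80% for SRC to 9.30% for YES1, beside a median of 5.75% over all these genes. PTK2 and PXN also had the most transcripts listed of these members, 181 and 37, and the part of this number in the measure was not tested. For the low LYN and PTK2B the measure was 27.5% and 86.7%. Where reads match more than 1 transcript, Kallisto splits them by estimation, and the error of this division is not part of the deposited table.

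**Figure D3:**
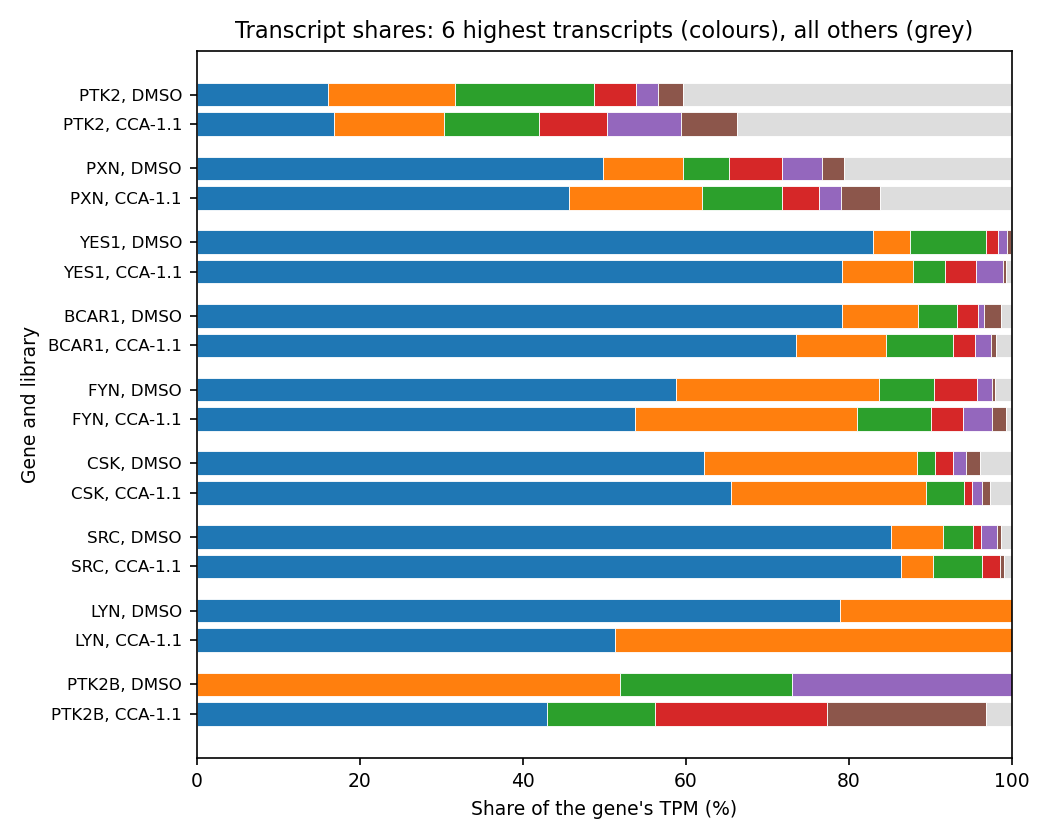
Share of each member's TPM (horizontal axis, %) held by its 6 transcripts of highest mean TPM (colours, same order in both bars of a gene) and by all others (grey), in the DMSO and the CCA-1.1 library. A single transcript holds most of SRC, FYN, YES1, LYN, CSK and BCAR1, PTK2 is spread over many, and the bars of PTK2B share little.

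**Figure D4:**
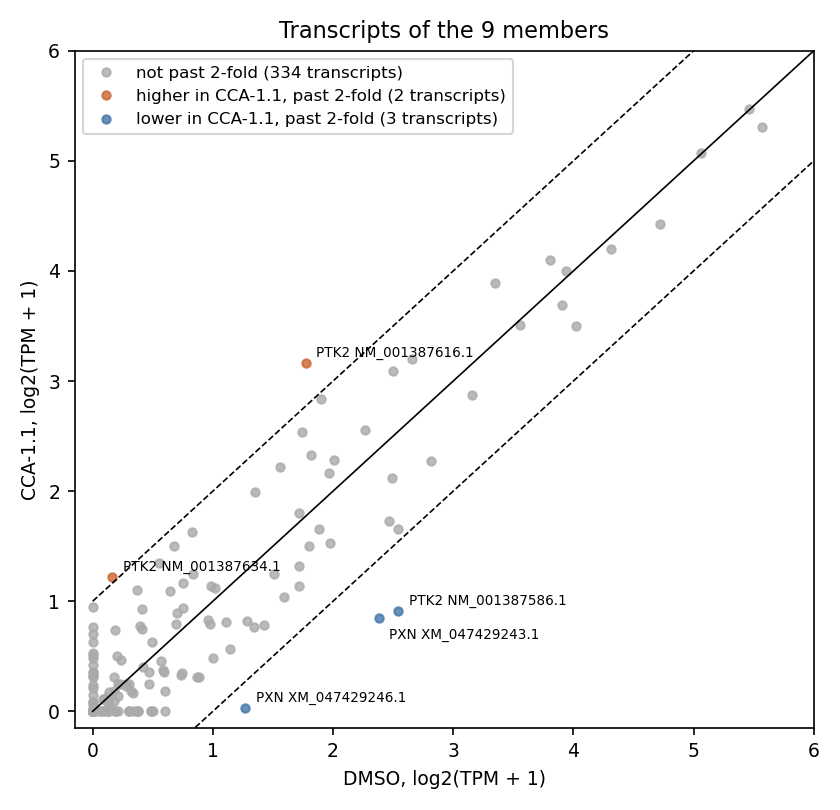
Each point is 1 of the 339 member transcripts, by log2(TPM + 1) in the DMSO library (horizontal) and the CCA-1.1 library (vertical). The solid line marks equal values and the dashed lines 2-fold, and the 5 named transcripts of PTK2 and PXN lie outside the dashed lines.

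The wider pathway was described by a list of 49 genes, of which none was past 2-fold, against the 0.815% and 0.714% of all genes named above. Among protein-coding genes that averaged 10 TPM or more, as 30 of the list did, the shares were 0.0632% and 0.152%. The list median was -0.0045, and 21 genes were higher, 26 lower and 2 equal. Of the 30 list genes at 10 TPM or more, 12 were higher, against 51.1% of all protein-coding genes at that level. In the group of SRC regulators, 3 of 8 genes were higher. PTPN12, the phosphatase that acts on p130Cas, was the highest of them, at 187 TPM with DMSO and 188 TPM with CCA-1.1, and PAG1 had the largest difference of the list, 0.31. Among the CAS and paxillin families and the CRK arm, 3 of 10 genes were higher. CRK, the adaptor that binds phosphorylated p130Cas and paxillin, led with 52.2 TPM and 50.2 TPM, and its relative CRKL was at 40.5 TPM and 34.2 TPM (-0.24). The 7 other SRC family and related kinases had 2 genes higher, and 5 of them were under 1 TPM in the mean.

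Of the 24 genes of the adhesion plaque, 13 were higher with CCA-1.1. CAV1 (caveolin-1), a scaffold phosphorylated by SRC, was the highest, at 773 TPM with DMSO and 798 TPM with CCA-1.1. TLN1 (talin), which links integrins to actin, had the lowest difference of the list, at 187 TPM and 153 TPM (-0.29). VCL (vinculin), which binds talin, was also lower, at 123 TPM and 106 TPM (-0.21). On the other side ARHGEF7, an exchange factor that joins the paxillin complex, was at 28.8 TPM and 33.0 TPM (0.19), and RASA1 was at 23.2 TPM and 25.3 TPM (0.12). Next to the 5th and 95th percentiles given above, only the differences of TLN1 and PAG1 reached the edge of the central 90% of protein-coding genes.

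**Figure D5:**
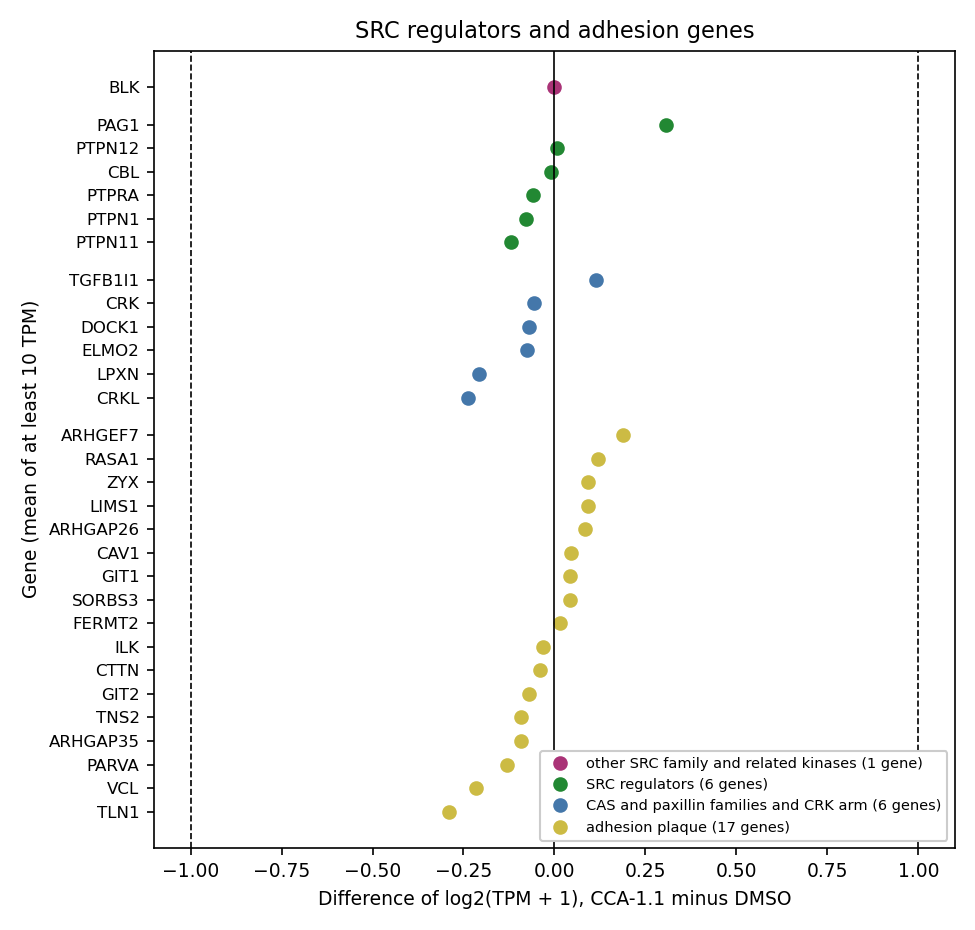
Difference of log2(TPM + 1), CCA-1.1 minus DMSO, for the 30 genes of the pathway list that averaged 10 TPM or more, coloured by group, with dashed lines at 2-fold. PAG1 lies farthest to the right and TLN1 farthest to the left, and all genes lie well inside the dashed lines.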

How the data were processed

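U87 cells treated for 72 h with DMSO or CCA-1.1 gave 1 mRNA library each. Reads were checked with FastQC 0.11.9 and MultiQC 1.1, per the submitters' processing notes, and the authors quantified transcripts with Kallisto against GRCh38.p14. The deposited values are TPM with 2 decimals, and the unit was inferred from column sums of 999999 and 1e+06. TPM keeps no depth and no count, so edgeR, which the authors applied, was not run and no p-value was calculated.

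Of 177816 transcripts, 169966 were matched to a gene symbol of RefSeq (GRCh38.p14) with versions ignored, and TPM was summed per gene. Differences were taken on log2 values with a pseudocount of 1 TPM. The threshold was a difference of 1 on this scale, after the fold criterion of the study.

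The members and the lists were chosen with earlier results of these data known. Named were all members, their highest transcripts, those past 2-fold or with at least 5% of the gene, and of the pathway list the genes past 2-fold, the 3 largest differences each way at 10 TPM or more, the highest of each group and relatives of members. With 2 libraries a pattern is 1 difference, so no gene was named for likeness to a member. Some genes under the rule are not reported here. Alternatives were pseudocounts of 0.1 and 0.01 TPM, median-ratio scaling, curated transcripts only, a minimum mean of 1 TPM and versioned matching. The scripts were tested on simulated data. Python 3.11.15, numpy 2.4.6, pandas 2.3.3 and matplotlib 3.10.9 were used.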

Additional observations from a re-analysis of the deposited data

How the results depend on the processing

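No paired analysis was possible because each group holds a single library, and no library could be left out. None of the members was past the 2-fold threshold at gene level under any alternative run. Of 45 member differences recalculated, 1 changed sign, that of PTK2B with curated transcripts only, and 3 moved by 0.1 or more, all of PTK2B. The number of member transcripts past 2-fold was 5, and it was 53 with a pseudocount of 0.1 TPM and 70 with 0.01 TPM, of which 42 and 59 had a mean under 1 TPM; the share was then 15.6% and 20.6%, beside 15.6% and 24.0% of all transcripts. It was 3 with curated transcripts only and 3 with a mean of at least 1 TPM. In the pathway list 4 genes passed 2-fold with 0.01 TPM (LCK, MATK, NEDD9 and TNS1, all under 0.15 TPM in the mean). Of the 16 shares of leading transcripts recalculated over curated transcripts, 8 moved by 5 points or more, those of SRC, FYN, YES1 and PXN, where predicted transcripts were left out of the total. The median ratio of protein-coding genes, used for scaling, was 1.003. Sums over transcripts with a shared coding sequence were not run, since no table used here links these transcripts to one. Read depth is unknown, so what a value under 1 TPM can resolve cannot be stated.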

Other observations

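MIR4513, a microRNA gene of 86 bases inside CSK, was listed at 0 with DMSO and at 13.3 TPM with CCA-1.1. The number of reads behind a TPM value on so short a gene is unknown, and whether they came from CSK was not tested. Of the other genes that lie within or across the members and have a value, the microRNA genes MIR151A (in PTK2) and MIR6842 (in PTK2B) and the small nucleolar RNA gene SNORA1B (in LYN) were listed at 0 in both libraries. TRIM35, a protein-coding neighbour that overlaps PTK2B, was at 9.91 TPM with DMSO and 10.4 TPM with CCA-1.1, above PTK2B in both.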
